A study of Oryzias latipes with 84 samples.

Results

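Pituitaries of juvenile female medaka, 37 to 39 days post fertilization (dpf), were compared with pituitaries of juvenile males of 38 dpf. The fish were chosen by the sex and age in their labels, and 8 of the 84 bulk RNA-seq libraries of the series belong to them, 4 of females and 4 of males. Each library was made from the pituitary of 1 fish, so that each fish is a replicate. The females are medaka14 (37 dpf) and medaka103, medaka104 and medaka106 (39 dpf), the males medaka125, medaka126, medaka127 and medaka128 (38 dpf), and values per fish are given in this order. All 84 fish, of both sexes, carry the d-rR lhb:GFP transgene, in which a green fluorescent protein cassette reports the luteinizing hormone gene, so that no group lacks the reporter. No fish was treated, and the comparison asks which genes of the pituitary differ between the sexes at an age when the fish are still juvenile. The other 76 libraries come from 64 females and 12 males of other ages. The design gives a single male age near that of these females, and the labels name neither the tank nor the day of extraction of a fish.

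The pituitary is an endocrine gland made of cell types that each produce mainly a single peptide hormone. Corticotropes and melanotropes process the product of pomca into the hormones Acth and α-Msh, lactotropes produce prolactin (prl), somatotropes growth hormone (gh), thyrotropes the β subunit of thyrotropin (tshba), and somatolactin cells the fish hormone somatolactin (smtla). Gonadotropes produce follicle-stimulating hormone and luteinizing hormone, whose β subunits (fshb, lhb) pair with a common α subunit (cga), and in teleosts they come mostly from separate cells. Sexual maturation is driven by the gonadotropins, which act on the ovary and the testis. In a whole gland, fewer cells of a type and less RNA per cell cannot be told apart.

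The libraries of the sexes differed in depth and RNA quality. Total counts were 7656931, 4043572, 5229044 and 5300523 in the females, against 7185719, 6954042, 8373883 and 9178808 in the males. Over the whole series they ranged from 2424546 to 9348785. The RNA integrity number did not overlap between the sexes, with 7.7 to 9.1 in females and 9.3 to 9.6 in males, so that sex and RNA integrity cannot be told apart in these fish. After all libraries had been thinned to 2424546 counts, 19667, 22560, 21560 and 21729 genes had a count in the females, against 19010, 19191, 19829 and 19079 genes in the males. The females of 39 dpf lay above every male, and medaka14 lay among the males. The mean was 2102 genes higher in females (21379 ± 1222 against 19277 ± 375 in males, SD, n = 4 each, exact permutation test, two-sided, p = 0.0571, 0.171 adjusted over 3 measures). With 4 fish against 4, this test cannot go below p = 0.0286.

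In the ranks of all genes, the females least like the others were medaka103 and medaka14. The Spearman correlation of medaka103 with the other 3 females averaged 0.921, and that of medaka14 averaged 0.927, and the lowest value of both, 0.897, was the one between them. With the 4 males medaka103 averaged 0.877 and medaka14 averaged 0.938. The female medaka14 was the longest, at 12.5 mm against 11 to 11.5 mm in the others, and the males measured 12 to 12.5 mm. Blood genes marked out 1 fish of each sex. The globin genes gb and hbbe2 together took 6.10% of the counts in medaka103 and 7.84% in medaka125, and 0.0866% to 1.36% in the other 6 fish.

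**Figure D1:**
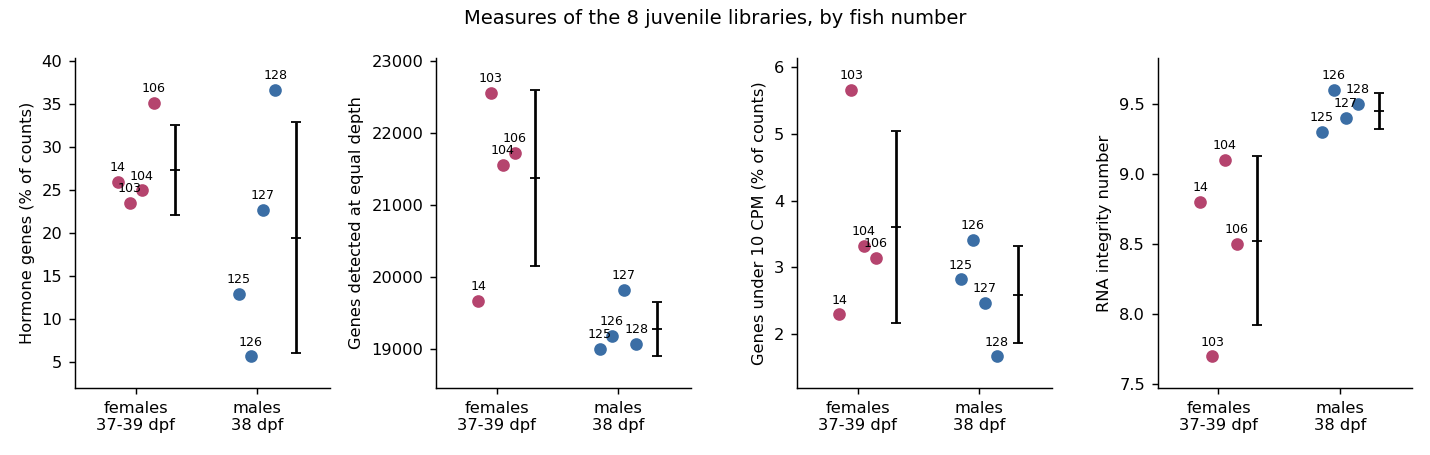
Each point is 1 juvenile fish, named by the number in its label, with females (37 to 39 dpf) left of males (38 dpf), and the bar is the mean ± SD of 4 fish. The panels show the share of counts in the 8 hormone genes (%), the genes detected after thinning to 2424546 counts, the share of counts in genes under 10 CPM (%), and the RNA integrity number. Of the 4 measures, the RNA integrity number alone does not overlap between the sexes (7.7 to 9.1 in females, 9.3 to 9.6 in males).

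Across all genes, no difference between juvenile females and juvenile males passed the test with the 8 fish alone. Of 17562 genes with enough counts, 0 (0%) were called by edgeR's quasi-likelihood test at a Benjamini-Hochberg adjusted p under 0.05, and the smallest adjusted p was 0.249. At an unadjusted p under 0.05 there were 2209 genes (12.6%), 1264 higher and 945 lower in females. The limma-voom test with sample weights also called 0 genes, with 2248 at an unadjusted p under 0.05. The count changed with the test and with the fish in the fit. DESeq2 on the same 8 fish called 830 genes (3.77% of 22029), 709 of them higher in females and the rest lower, and edgeR with all 84 libraries in the fit called 2289 higher and 566 lower (12.8% of 22246). Of the 709 genes that DESeq2 called higher, 693 were also higher in the fit of all libraries, which is 97.7% of the DESeq2 list and 30.3% of the other. Of the genes that DESeq2 called lower, 87 were shared, 71.9% of the DESeq2 list and 15.4% of the other. Both fits compare the same 8 fish, so that these shares are not separate support. The 4 juvenile females were also pooled with the other females of 32 to 49 dpf, 16 in all, and set against the same males. In that fit edgeR called 2208 genes higher and 1787 lower in females (19.2% of 20795), and 2007 genes in all without medaka125. Without medaka14, edgeR called 2 genes higher in females, and 0 without any other single fish.

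In CPM, the 4 males were less uniform than the 4 females. Among 11274 genes with a mean of at least 10 CPM (counts scaled to a library total of 1000000), 69.5% had the larger SD of log2 CPM in males, and the median SD was 0.352 in females and 0.486 in males. These CPM carry no TMM factors, which ran from 0.937 to 1.143 in females and from 0.775 to 1.127 in males. All genes of a library share its total, so they are not independent measures of spread. The part of scaling in these SDs was not tested. Of the 25 genes with a known name, 20 varied more among the males. In 824 of the 17562 genes (4.69%) every female lay above every male, and in 151 (0.86%) every female lay below every male. The named genes showed this in 0 of 25 cases in either direction.

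The median difference followed how strongly genes are expressed. Genes were sorted by their mean in the 76 libraries of other ages, and in the fit of the 8 fish the median log2 fold change of females over males was 0.42 for genes of 1 to 5 CPM, 0.37 for 5 to 10 CPM and -0.03 for 10 to 50 CPM. It was -0.19 for genes of 50 to 100 CPM, -0.23 for 100 to 1000 CPM and -0.25 for 1000 CPM and more, against 0.00 over all genes tested. The median was thus above 0 for low-expressed genes and slightly below 0 for strongly expressed ones. A low-expressed gene could enter this fit through the 4 fish of 1 sex, and how many did so was not counted. By any route, 2241 of the 5227 genes of 1 to 5 CPM and 3204 of the 3370 genes of 5 to 10 CPM entered it. With no filter on low counts the medians of these classes were 1.04 and 0.33, and that of genes of 100 to 1000 CPM was -0.31. At an unadjusted p under 0.05 in the filtered fit, 507 genes of 5 to 10 CPM were higher in females and 78 lower, whereas 15 genes of 50 to 100 CPM were higher and 195 lower. Genes under 10 CPM in the mean of all libraries (12302 genes) together took 2.29%, 5.67%, 3.31% and 3.14% of the counts in the females, against 2.82%, 3.41%, 2.47% and 1.66% in the males. These shares overlap between the sexes (3.60% ± 1.45 in females, 2.59% ± 0.73 in males, SD, n = 4 each, exact permutation test, two-sided, p = 0.286). The female with the lowest RNA integrity number and the fewest counts, medaka103, had the largest share, and without it the difference was 0.327 percentage points, against 1.01 with all fish. The part of RNA integrity and depth in these medians and shares was not tested. Only numbers of genes were counted in other fits. Counts thinned to the lowest total of the 8 fish gave 0 called genes, with 1834 of 16142 below an unadjusted p of 0.05. With the RNA integrity number as a covariate, 0 were called and 371 of 19996 lay below that p. Body length and genes detected as covariates gave 0 called genes too, with 795 and 450 below it. RNA integrity does not overlap between the sexes, so its fit cannot separate it from sex.

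The pattern was not particular to juveniles. In 1 fit of all 84 libraries, genes of 1 to 5 CPM had a median log2 fold change of 1.07 in juveniles, 0.56 in females of 58 to 59 dpf over males of 57 dpf, 1.08 in females of 64 to 74 dpf over males of 70 dpf, and 0.35 in females of 131 to 179 dpf over males of 134 dpf. Genes of 100 to 1000 CPM had medians of -0.27, -0.26, -0.39 and -0.19 at these ages. The slope therefore had the same direction at every age at which the series has males. This fit holds 5223 genes of 1 to 5 CPM, more than the fit of the 8 fish, and the fitted fold change of a gene with counts of 0 in some fish depends on the prior count. The libraries that sorted the genes include every fish of the later ages. The sorting is therefore independent of the fish compared in juveniles only. At 57 to 59 dpf the RNA integrity number again did not overlap, with 9.1 to 9.8 in the 3 females with a value and 10 in the males. It overlapped between the sexes at 64 to 74 dpf and at 131 to 179 dpf. The part of RNA integrity in the slope at the later ages was not tested.

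**Figure D2:**
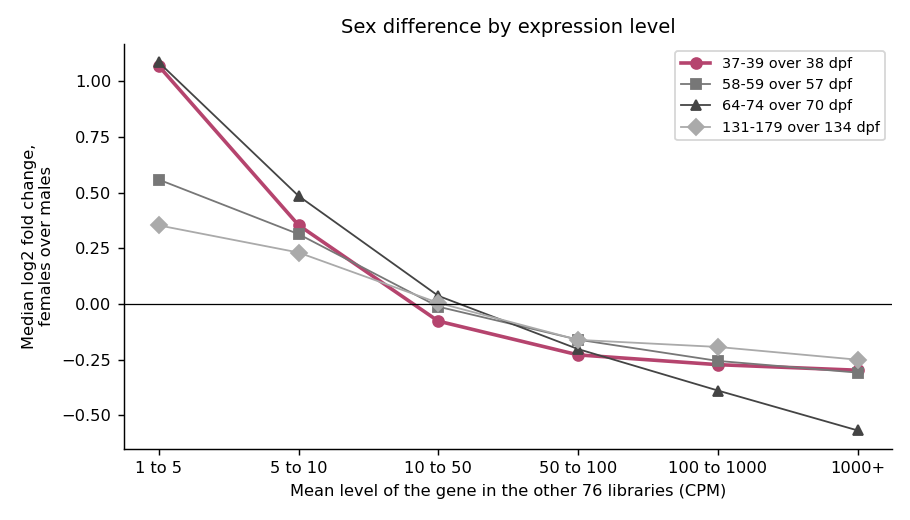
Median log2 fold change of females over males (vertical axis) for genes sorted by their mean CPM in the 76 libraries other than the juveniles (horizontal axis), in 1 fit of all 84 libraries, with a line for each pair of ages. The 76 libraries include the fish of the later pairs. At every age the median falls from the 1 to 5 CPM class (1.07 in juveniles) to the strongly expressed classes (-0.27 at 100 to 1000 CPM in juveniles).

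Among the 8 hormone genes, 0 passed the test. All 8 were detected in every fish, at 125.4 CPM (lhb in medaka127) or more. Of the 8, 7 had the higher mean in juvenile females, and lhb had the higher mean in males. Together they took 25.9%, 23.5%, 24.9% and 35.1% of the counts in the females, against 12.9%, 5.60%, 22.6% and 36.7% in the males. The males thus spanned a wider range than the females and included both the lowest shares and the highest. The means, 27.4% ± 5.27 in females and 19.5% ± 13.4 in males (SD, n = 4 each), did not differ beyond this spread (exact permutation test, two-sided, p = 0.314). Without medaka128 the difference was 13.7 percentage points, against 7.91 with all fish (exact permutation test, p = 0.0571, the smallest p that 4 fish against 3 allow). Within the males, medaka128 was the highest in 7 of the 8 hormone genes and medaka126 the lowest in 5.

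Somatolactin had the smallest p of the hormone genes. smtla, whose product acts in colour change and metabolism in fish, had 4025, 10011, 8855 and 12724 CPM in the females, against 2528, 3841, 3215 and 6431 CPM in the males. All males but medaka128 lay below every female, and medaka14 lay below medaka128. The females averaged 8904 ± 3634 CPM and the males 4004 ± 1705 CPM (SD, n = 4 each), a ratio of 2.22. The log2 fold change was 1.00 ± 0.48 (SE, 95% interval -0.05 to 2.04), and it did not pass the test (edgeR, adjusted p = 0.410). Its sign was positive under all 22 alternatives tried, between 0.10 and 1.46. With body length as a covariate the log2 fold change was 0.10, and with genes detected it was 0.14. In both measures only medaka14 among the females lay within the range of the males, so that these fits barely separate them from sex.

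Prolactin, growth hormone and thyrotropin differed less between the sexes than among the males. prl had 131524, 110747, 111921 and 146972 CPM in the females, against 66730, 9556, 144796 and 153268 CPM in the males. The females were within 1.33-fold of each other and the males spanned 16.0-fold, with medaka126 the lowest. gh, which promotes growth, had 60656, 51080, 43660 and 49199 CPM in the females, against 28921, 12134, 27414 and 71174 CPM in the males. All males but medaka128 lay below every female, and medaka128 lay above all of them. tshba had 7003, 6825, 5649 and 9621 CPM in the females, against 5544, 325, 6630 and 14841 CPM in the males. The male medaka126 was again the lowest. The log2 fold changes were 0.26 ± 0.74 for prl, 0.33 ± 0.61 for gh and -0.13 ± 0.83 for tshba (SE, edgeR, adjusted p = 0.902, 0.844 and 0.961). For tshba the mean CPM was higher in females and the fitted change negative, and without TMM factors it was 0.10. These values moved with single males. Without medaka128 they were 0.72 for prl, 1.104 for gh and 0.73 for tshba, and without medaka126 they were -0.17, -0.02 and -0.58, and 0 of the 6 passed the test.

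The factor that these 3 cell types share in vertebrates showed the same fish as low. pou1f1, which encodes a transcription factor needed for lactotropes, somatotropes and thyrotropes, had 131, 151, 139.03 and 178 CPM in the females, against 85.9, 27.6, 169 and 197 CPM in the males. The male medaka126 was the lowest of the 8 fish in pou1f1, prl, gh and tshba, and medaka128 the highest in all 4. This order was not particular to these genes. The gonadotrope genes cga, nr5a1b and gnrhr2 were also lowest in medaka126. Of 15 genes of hormones and hormone cells, medaka128 was the highest male in 12 and medaka126 the lowest male in 8. The log2 fold change of pou1f1 was 0.15 ± 0.53 (SE, edgeR, adjusted p = 0.922).

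The fitted change of fshb rested on 1 fish. fshb had 7479, 633, 389 and 1419 CPM in the females, against 774, 498, 1049 and 1018 CPM in the males. The female medaka14 had 5.27 times the level of the next female, and the other 3 females lay around the males. The log2 fold change was 1.52 ± 0.89 (SE, 95% interval -0.48 to 3.51, edgeR, adjusted p = 0.491), and without medaka14 it was -0.16. Females of 44 to 49 dpf (n = 8) had 943 to 6274 CPM of fshb and a median of 2486 CPM, so that medaka14, of 37 dpf, lay above all of these older females. lhb had 331, 310, 283 and 272 CPM in the juvenile females, against 383, 320, 125.4 and 777 CPM in the males. The females lay close together, within the range of the males (log2 fold change -0.64 ± 0.51, SE, edgeR, adjusted p = 0.604). The higher male mean of lhb rested on medaka128, without which the log2 fold change was 0.06. cga had 4404, 2101, 1967 and 3597 CPM in the females, against 2473, 723, 2111 and 4947 CPM in the males, and overlapped fully (0.05 ± 0.59, SE, edgeR, adjusted p = 0.981). The female medaka14 was the highest female in fshb, lhb and cga.

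Other gonadotrope genes also overlapped. nr5a1b, which encodes a nuclear receptor of gonadotropes, had 287, 193, 186 and 208 CPM in the females, against 130, 111, 285 and 249 CPM in the males. gnrhr2, the receptor by which gonadotropin-releasing hormone acts on gonadotropes, had 61.5, 67.5, 81.9 and 92.3 CPM in the females, against 44.0, 18.8, 80.8 and 89.01 CPM in the males. The log2 fold changes were 0.07 ± 0.36 and 0.23 ± 0.45 (SE, edgeR, adjusted p = 0.954 and 0.858). The transgene did not follow lhb from fish to fish. The GFP cassette had 1034, 1053, 8101 and 6088 CPM in the females, against 1660, 7286, 5262 and 4012 CPM in the males (log2 fold change -0.20 ± 0.67, SE, edgeR, adjusted p = 0.919). The 4 females differed up to 7.83-fold in the cassette and up to 1.22-fold in lhb.

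**Figure D3:**
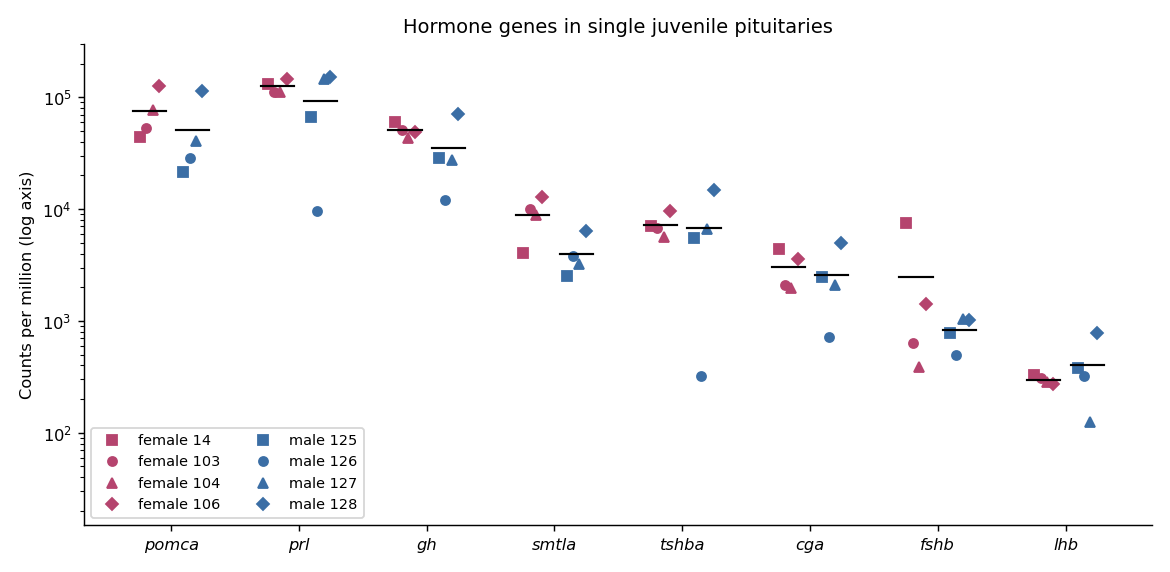
CPM (log axis) of the 8 hormone genes in each juvenile fish, females left of males for each gene, with a line at the mean of 4 fish. The males spread more than the females in prl (9556 to 153268 CPM against 110747 to 146972 CPM in females), and medaka14 stands apart in fshb at 7479 CPM.

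In genes of corticotropes and melanotropes, medaka125 was the lowest fish. pomca had 43888, 52875, 76752 and 127445 CPM in the females, against 21573, 28600, 41026 and 114551 CPM in the males. All males but medaka128 lay below every female, and medaka128 was the second highest of the 8 fish (log2 fold change 0.35 ± 0.68, SE, edgeR, adjusted p = 0.855). Without medaka128 the log2 fold change of pomca was 1.31 (edgeR, adjusted p = 0.242). crhbp, which encodes a protein that binds corticotropin-releasing hormone, had 279, 309, 264 and 487 CPM in the females, against 91.8, 224, 152 and 727 CPM in the males. It showed the same order of males at its ends, with medaka125 lowest and medaka128 highest. pcsk2, a protease that cuts prohormones such as the pomca product, had 783, 1655, 1458 and 1655 CPM in the females, against 431, 607, 1094 and 1766 CPM in the males. oacyl, which the study uses as a melanotrope gene, had 787, 887, 983 and 1542 CPM in the females, against 313, 733, 1052 and 1526 CPM in the males. pax7, a transcription factor of melanotropes, had 30.3, 30.9, 22.6 and 41.3 CPM in the females, against 18.9, 44.3, 38.8 and 30.2 CPM in the males. The male medaka125 was the lowest fish in all 5 genes and medaka106 or medaka128 the highest in 4 of them. The log2 fold changes of crhbp, pcsk2, oacyl and pax7 were between -0.12 and 0.33, and none passed the test (edgeR, adjusted p between 0.797 and 0.981).

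In genes of blood and immune cells, medaka125 was the highest fish. The globin gene hbbe2 had 9771, 43582, 6822 and 4078 CPM in the females, against 55296, 7283, 621 and 5655 CPM in the males, and gb followed it (3820, 17370, 2913 and 1925 CPM in the females, against 23105, 2967, 246 and 2262 CPM in the males). In both sexes 1 fish carried most of the globin counts. CD74, a chaperone of MHC class II proteins that marks macrophages and other immune cells, had 379, 292, 345 and 251 CPM in the females, against 1137, 260, 256 and 320 CPM in the males. The male medaka125 stood apart, and the other males lay within the range of the females (log2 fold change -0.78 ± 0.50, SE, edgeR, adjusted p = 0.517). Without medaka125 it was 0.05. With the 16 females of 32 to 49 dpf, the 4 juvenile females among them, CD74 was lower in females (log2 fold change -0.98, edgeR, adjusted p = 0.0208). This was the only call among the 550 values of the named genes under alternatives. Without medaka125 this call was lost (-0.15 ± 0.25, SE, edgeR, adjusted p = 0.728). fth1a, which encodes the iron store ferritin, had 1923, 3565, 1684 and 1542 CPM in the females, against 4178, 1923, 1690 and 1959 CPM in the males, and was highest in the 2 fish with the most globin.

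The remaining named genes were uncalled as well. eef1a, a translation elongation factor of all cells, had 4709, 3424, 3828 and 4324 CPM in the females, against 4497, 5056, 5289 and 5054 CPM in the males. All males but medaka125 lay above every female, and the log2 fold change was -0.37 ± 0.33 (SE, edgeR, adjusted p = 0.645). cyp19b, the brain form of aromatase, which makes oestrogens, had 2456, 1052, 3096 and 1907 CPM in the females, against 793, 1085, 3089 and 1441 CPM in the males. Its groups overlapped almost fully (0.36 ± 0.45, SE, edgeR, adjusted p = 0.758). crabp1a, mdkb and mcee had log2 fold changes of 0.14, -0.35 and -0.35 (edgeR, adjusted p = 0.932, 0.660 and 0.618).

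**Figure D4:**
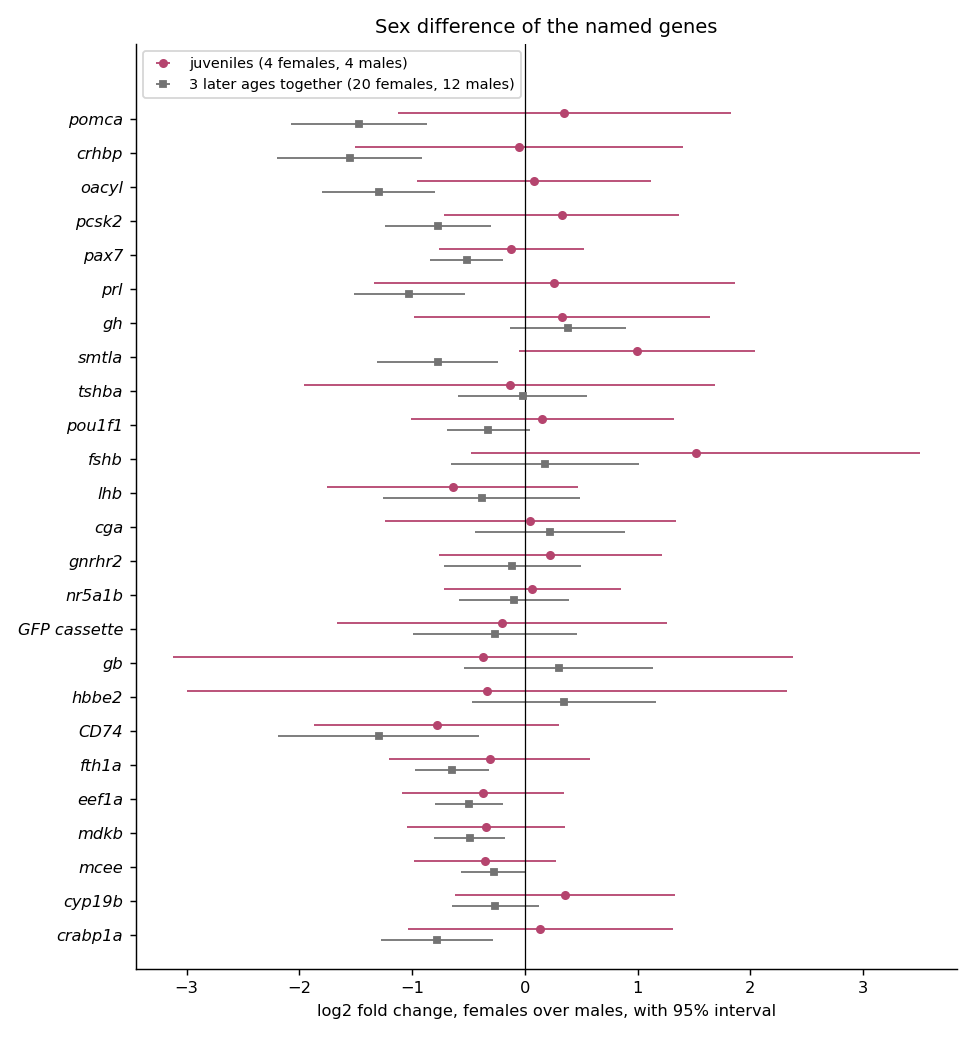
Log2 fold change of females over males (horizontal axis) with its 95% interval for the 25 named genes, in the juveniles (circles, 4 females and 4 males) and in the 3 later ages fitted together (squares, 20 females and 12 males). All 25 juvenile intervals include 0, while pomca (-1.47), crhbp (-1.55) and prl (-1.02) lie below 0 at the later ages.

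With the 8 fish alone, the genes that came nearest to the threshold carry only identifiers. The 4 described here were chosen after their values were seen, as the 2 with the smallest p in each direction among those with a mean of at least 5 CPM, so their juvenile values are a description. ENSORLG00000006416 had 22.1, 12.9, 20.3 and 15.5 CPM in the females, against 58.4, 70.6, 47.1 and 36.6 CPM in the males, with 52 to 491 counts behind these values. The sexes did not overlap (log2 fold change -1.64 ± 0.27, SE, edgeR, adjusted p = 0.249). Under the 22 alternatives the log2 fold change lay between -1.83 and -0.99, and the gene was called in 3 of them, DESeq2, the fit of all libraries and that with females of 32 to 49 dpf. Whether its reads are shared with a similar copy elsewhere in the genome was not tested. ENSORLG00000015399 had 11.6, 8.90, 17.6 and 10.9 CPM in the females, against 24.9, 53.6, 38.3 and 28.2 CPM in the males. ENSORLG00000017250 had 3.40, 18.3, 8.22 and 9.62 CPM in the females, against 0.557, 0.575, 0.836 and 0.109 CPM in the males. ENSORLG00000006227 had 3.00, 22.0, 7.46 and 9.43 CPM in the females, against 0.139, 0.288, 0.717 and 0 CPM in the males. In every male the last 2 genes lay at 0.836 CPM or less, so that only few counts lie behind the male values. Both genes that were higher in females were highest in medaka103 and lowest among the females in medaka14.

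The other ages of the series gave a test of these 4 genes in fish that had not chosen them, though there too the label numbers separate the sexes. In 32 fish of the 3 later ages at which the series has males (20 females, 12 males), with age as a block, edgeR called 2249 genes higher (10.8% of 20790) and 2293 lower (11.0%) in females. DESeq2 called 3948 higher and 1658 lower, so that the balance of directions depended on the tool. ENSORLG00000006416 had the smallest p of all 20790 genes (log2 fold change -1.46 ± 0.12, SE, adjusted p = 1.63e-09). Over the whole series it ranged from 27.6 to 70.6 CPM in the 16 males, with a median of 36.3, and from 9.26 to 36.8 CPM in the 68 females, with a median of 17.4. Only 2 of the 68 females reached the level of the lowest male. The juveniles had chosen this gene, so that only the 3 later ages test it. In the fit of all 84 libraries it was lower in females at all 4 ages. At 57 to 59 dpf that fit called this gene alone, so that no other gene could meet this. The log2 fold changes were -1.67 in juveniles, -1.52 at 57 to 59 dpf, -1.44 at 64 to 74 dpf and -1.22 at 131 to 179 dpf (edgeR, adjusted p = 2.52e-05, 0.000804, 2.78e-06 and 0.000332). ENSORLG00000006227 was higher in females at the later ages (1.44 ± 0.35, SE, edgeR, adjusted p = 0.00909). In the juveniles, which had chosen them, the log2 fold change was 5.05 for this gene and 4.14 for ENSORLG00000017250, larger than at the later ages. ENSORLG00000017250 (0.72 ± 0.34, SE, edgeR, adjusted p = 0.116) and ENSORLG00000015399 (0.31 ± 0.23, SE, edgeR, adjusted p = 0.314) did not pass. For ENSORLG00000015399 this sign was opposite to that in juveniles, where the log2 fold change was -1.61. Its median was 16.7 CPM in females and 9.34 CPM in males at 57 to 59 dpf, and 24.5 and 8.70 CPM at 64 to 74 dpf. At 131 to 179 dpf it was 10.8 CPM in females and 15.8 CPM in males.

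**Figure D5:**
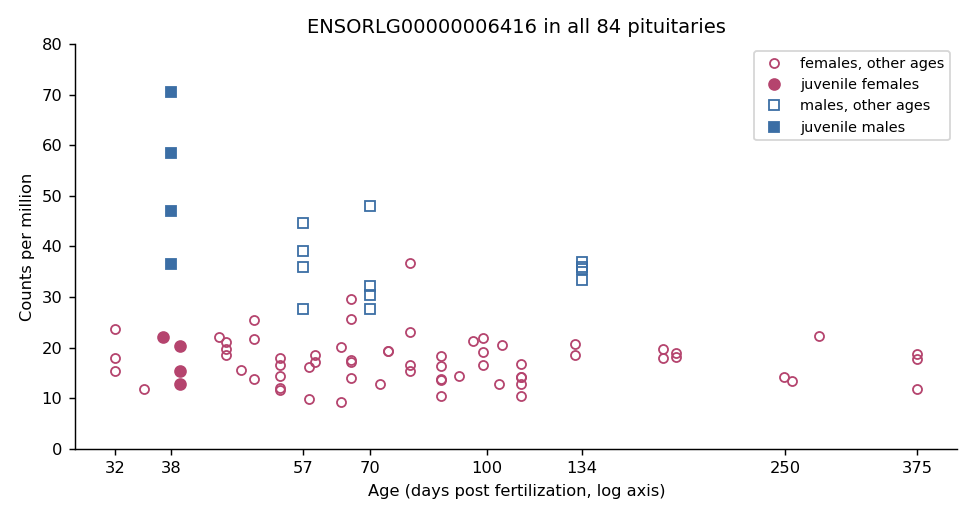
CPM of ENSORLG00000006416 (vertical axis) against age in dpf (log axis) in all 84 pituitaries, females as circles and males as squares, juveniles filled. The juvenile females sit between 12.9 and 22.1 CPM and the juvenile males between 36.6 and 70.6 CPM, and the 16 males stay at or above 27.6 CPM at every age.

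Genes that differed between the sexes later were also looked up in the juveniles, which share no fish with that comparison. Of the 2249 genes higher in females at the later ages, 1334 passed the filter on low counts in the juveniles, and a low-expressed gene could pass it through the 4 females alone. The lists were therefore counted in a fit of the 8 fish with no filter. In that fit 950 of 2248 genes (42.3%) were higher in juvenile females at an unadjusted p under 0.05, against 10.6% of all 23614 genes with a count, and 4 were lower. Since the median difference followed the expression level, the same was counted for genes of 10 CPM and more in the libraries of other ages, of which nearly all passed the filter (538 of the 554 on the list). Of the 554 genes, 195 (35.2%) were higher in juvenile females, against 3.503% of all genes at that level, and 2 were lower. Of the 2293 genes lower in females at the later ages, 297 (13.0%) were lower in juvenile females, against 5.44% of all genes, and 8 were higher. At 10 CPM and more these were 280 of 2111 genes (13.3%), against 8.95% of all genes at that level. Within this range the share of all genes was 7.95% at 10 to 50 CPM, 13.3% at 50 to 100 CPM and 9.63% at 100 to 1000 CPM. The list was not matched for level within the range, and the part of expression level in its 13.3% was not tested. The genes detected at equal depth averaged 21736 in females and 20356 in males at 57 to 59 dpf, 22162 in females and 19218 in males at 64 to 74 dpf, and 22372 in females and 21791 in males at 131 to 179 dpf. The part of this measure, of RNA integrity and of the label number in the recurrence was not tested.

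At the age nearest to the juveniles, few genes passed. Females of 58 to 59 dpf and males of 57 dpf (4 each) differed in 0 genes higher and 6 lower in females (0.0325% of 18464, edgeR), with 1725 at an unadjusted p under 0.05, while DESeq2 called 31 higher and 56 lower, and ENSORLG00000006416 was among the 6 (log2 fold change -1.54 ± 0.25, SE, edgeR, adjusted p = 0.0323). The difference between the 2 sex differences, juvenile minus 57 to 59 dpf, was called in 0 of 19841 genes (0%), with 882 (4.45%) at an unadjusted p under 0.05 and a smallest adjusted p of 0.217 (edgeR), and DESeq2 called 6. For the named genes its adjusted p was 0.996 or more. For smtla the difference was 0.94 ± 0.59 (SE, 95% interval -0.28 to 2.15), and for fshb 0.66 ± 1.105 (SE, 95% interval -1.70 to 3.01), so that changes of several-fold between the ages remain within the error.

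Set against the 3 later ages together, smtla, pomca and oacyl had the smallest p of the named genes for a difference between the ages, and none passed. In the fit of the later ages together 12 of the 25 named genes were lower in females and 0 higher. Lower in that fit were 11.0% of all genes, and 2111 of the 12133 genes of 10 CPM and more, a range that holds all 25. Of these 12133 genes 8951 lay at 10 to 50 CPM, and most named genes lay higher. The median difference fell with the expression level at these ages too. The part of expression level in the 12 was not tested. Among the 12 were pomca (-1.47 ± 0.30), crhbp (-1.55 ± 0.32), oacyl (-1.30 ± 0.25), prl (-1.02 ± 0.24) and smtla (-0.77 ± 0.26, SE, edgeR, adjusted p = 0.00290, 0.00337, 0.00195, 0.00743 and 0.0356). In juveniles the same genes had log2 fold changes of 0.35, -0.05, 0.08, 0.26 and 1.00. For smtla the later ages differed. At 57 to 59 dpf females averaged 9008 CPM and males 7687 CPM, and at 64 to 74 dpf 7027 and 7551 CPM. At 131 to 179 dpf they averaged 7184 and 16194 CPM, the widest gap of the 3 ages. The fit of all 84 libraries called neither smtla nor prl at any single later age. The difference, juvenile minus later, was called in 0 of 21540 genes (0%) with 40 fish in 1 fit, with 2349 at an unadjusted p under 0.05, while DESeq2 called 28 higher and 8 lower. It was 1.63 ± 0.58 for smtla (95% interval 0.47 to 2.80, unadjusted p = 0.00702), 1.70 ± 0.68 for pomca (0.32 to 3.07, unadjusted p = 0.0169) and 1.25 ± 0.56 for oacyl (0.12 to 2.37, unadjusted p = 0.0305). None of the 3 passed after adjustment over all genes (edgeR, adjusted p = 0.301, 0.368 and 0.415).

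At single later ages, the genes called higher in juvenile females by the fit of all libraries recurred mainly at 64 to 74 dpf. At 57 to 59 dpf the fit called 0 of 22246 genes higher in females, so that none of these 2289 genes could recur there. At 64 to 74 dpf 1346 of them (58.8%) were higher, where 18.4% of all genes were, and at 131 to 179 dpf 11 (0.481%), where 0.580% of all genes were. The share was thus above that of all genes at 64 to 74 dpf and near it at 131 to 179 dpf. It was not matched for expression level, which the median difference followed in juveniles and at 64 to 74 dpf. Genes of 1 to 5 CPM had median log2 fold changes of 1.07 and 1.08 at these 2 ages. The part of expression level in the 58.8% was not tested. The 1346 genes were 32.9% of those higher in females at 64 to 74 dpf. Of the 566 genes lower in juvenile females, 55 (9.72%) were lower at 64 to 74 dpf, where 9.71% of all genes were, and 27 were higher. At 131 to 179 dpf 3 (0.530%) were lower, against 0.333% of all genes, and at 57 to 59 dpf 1 was, the only gene called there. These shares were near those of all genes. The fit shares its estimate of the spread over all ages, and the ages differ in the number of females (4, 10 and 6).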

How the data were processed

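Single pituitaries were lysed in Trizol and sequenced as bulk RNA-seq (Smart-SEQ HT amplification, Nextera XT libraries, Illumina NovaSeq). The authors aligned the reads to the Hd-rR medaka genome (Ensembl) with adjusted gene models and deposited raw read counts as whole numbers for 24363 Ensembl genes and the GFP cassette. Tools in the submitters' processing notes are STAR 2.7.6a, SAMtools 1.10 and, for counting, HTSeq 0.11.2. The mode of counting is stated for the single-cell files of the study; neither the mode nor the use of strand is stated for these libraries. Overlapping and antisense genes therefore cannot be told apart. Libraries carry no molecular identifiers, so that errors from counting do not cover amplification.

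CPM are counts scaled to a library total of 1000000. Females over males were tested on the 8 fish only, in edgeR 4.0.16 (R 4.3.3), after filterByExpr and TMM scaling, by a robust quasi-likelihood fit whose p-values were adjusted after Benjamini and Hochberg (threshold 0.05). The standard error was derived from the F statistic. Alternatives were DESeq2 1.42.0, limma 3.58.1 (voom), other scaling and filters, each fish left out, all 84 libraries, females of 32 to 49 dpf, and body length, RNA integrity number or genes detected as a covariate. Single values were compared with exact permutation tests (Python 3.11.15, numpy 2.4.6, scipy 1.17.1, pandas 2.3.3; plots with matplotlib 3.10.9). The scripts were tested on simulated counts. A change of sign between values that do not pass the test was not counted as a reversal, since their intervals include 0.

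The fish, gene lists and comparisons were chosen with earlier results of these data known. Added after seeing the data were the thinned counts, the fit without medaka103 and medaka125, the comparison over the 3 later ages, the alternatives of the comparison at 57 to 59 dpf, the gene lists and expression classes with no filter on low counts, and CD74 without medaka125. Genes named are those that the paper pairs with an identifier (19 in its text, 5 with a heatmap) and the GFP cassette. No called gene met the rule for further identifiers, and the 4 given were chosen by their p. Of the genes in the symbol table, 0 carry an Ensembl identifier, and 12 lists written by symbol were therefore left untested. The paper gives ages below 134 dpf for 3 of the oldest males, and the age in the labels was used. Replicate numbers of the fish only name them and pair no samples.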

Additional observations from a re-analysis of the deposited data

Results flagged for a closer look

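Within 1 sex, 8 values of single fish stood apart from the other 3 by Dixon's test, of 56 sets of 4 fish tested. For independent sets of normally distributed values, chance flags about 1 in 20, or 2.8 of 56. The test was run on CPM without logs, and gb and hbbe2 were flagged in the same fish. The 8 flags therefore cannot be set directly against 2.8. In females, fshb was 7479 CPM in medaka14, and in medaka103 gb reached 17370 CPM and hbbe2 reached 43582 CPM. In males, medaka125 had values of 23105 CPM (gb), 55296 CPM (hbbe2), 1137 CPM (CD74) and 4178 CPM (fth1a), and medaka126 had 25.0 CPM of mcee. The fish medaka14 was 37 dpf old and the other females 39 dpf, and the part of this age in its fshb level was not tested. Leaving out medaka103 and medaka125 gave 0 called genes and 985 at an unadjusted p under 0.05 (edgeR).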

How the results depend on the processing

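Of 22 alternatives to the comparison of juvenile females with juvenile males, 18 called 0 genes. The others were DESeq2 with 830 genes, all 84 libraries in 1 fit with 2855, females of 32 to 49 dpf with 3995, and leaving out 1 fish at a time, with 0 to 2 genes. DESeq2 and the larger fits differ from the main test in the model or in the fish, and the cause of the gap was not tested. The difference between the sex differences of juveniles and of fish of 57 to 59 dpf was called in 0 genes without TMM factors and without each of the 16 fish, 6 genes with DESeq2 and 3 with all libraries; against the 3 later ages together DESeq2 called 36. At 57 to 59 dpf, DESeq2 called 87 genes against 6, and leaving out 1 fish at a time gave 2 to 8. For the shares of hormone genes and of low-expressed genes and the number of genes detected, leaving out 1 fish cannot give an exact p below 0.0571, so that these alternatives say nothing about stability. Of the 550 values of named genes under alternatives, 74 changed sign without passing the test and 1 (CD74, females of 32 to 49 dpf) was called, a call lost without medaka125. Without TMM factors the median log2 fold change of all genes was 0.09. No paired analysis was possible because replicate numbers only name the fish. With 4 fish of each sex, the interval of the fold change was widest among the hormone genes for fshb (0.72 to 11.4), whose change rested on 1 fish. For lhb it was 0.30 to 1.39. Differences of several-fold in at least 1 direction therefore remain within the error for some hormone genes.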
